A study of Mus musculus with 28 samples.

Results

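SR protein and hnRNP genes encode the main RNA-binding regulators of pre-mRNA splicing, and the positions of histone variant H3.3 and of acetylated histone H3 at these genes were described here in mouse embryonic stem cells. The members were all autosomal protein-coding genes whose mouse symbol begins with Srsf or Hnrnp. There were 31 of them, 11 Srsf and 20 Hnrnp genes, among 20661 autosomal protein-coding genes in the RefSeq table of assembly GRCm38.p6, whose primary chromosomes carry mm10 coordinates. The X-linked gene Hnrnph2 fell outside the rule. Hnrnpa1l2-ps2 carries a pseudogene-like symbol but is listed as protein-coding and was kept.

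SR proteins bind exonic sequence through RNA recognition motifs and recruit the splicing machinery through domains rich in arginine and serine. Proteins of the hnRNP class coat nascent transcripts, and many of them, such as HNRNPA1, act against SR proteins by favouring exon skipping. Both classes are made in large amounts by dividing cells, embryonic stem cells included, and many of their genes limit their own output through alternative splicing of their own transcripts. Histone H3.3 replaces canonical H3 in chromatin independently of DNA synthesis, and acetylation of histone H3 at lysine K27 (H3K27ac) is known from active promoters and enhancers.

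CUT&RUN, in which an antibody tethers a nuclease to its target in nuclei and the released DNA is sequenced, was performed on the male mouse embryonic stem cell line E14, in 28 libraries of 4 targets (H3K27ac, H3K122ac, H3.3 and a control with no primary antibody) with 7 libraries each. Each target was profiled in wildtype cells (2 libraries), in H3f3a_AA_H3f3b_WTA cells (2 libraries, 1 from each of 2 clones), and in H3f3a_AA_H3f3b_WTWT, H3f3a_WTWT_H3f3b_AA and H3f3a_WTA_H3f3b_AA cells (1 library each). H3f3a and H3f3b are the genes for H3.3, the series title names the mutation H3.3K122A, and the labels list no treatment. The growth protocol describes medium with serum and LIF and a version with 2 added kinase inhibitors, without saying which libraries used it. The values analysed were 1 consensus list of 5446 H3.3 regions and 1 of 57857 H3K27ac regions, with no value per library, so genotypes could not be compared, depth is unknown, and every count below is a description without replicates and without a test. Which libraries entered each list is not given in the sources used here, so a region may come from wildtype cells, mutant cells or both. The 7 pluripotency genes looked up to check the cell type label (Pou5f1, Sox2, Nanog, Esrrb, Zfp42, Klf4 and Tfcp2l1) all had an H3K27ac region at an end. The 7 regulators of differentiated lineages (Sox1, Pax6, Neurod1, Gata4, Sox17, Foxa2 and Myod1) had none. H3.3 lay at an end of 5 of these 7 regulators and of 1 of the 7 pluripotency genes, Pou5f1. Over all autosomal protein-coding genes the shares were 40.6% for H3K27ac and 16.8% for H3.3.

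Nearly all SR and hnRNP genes carried H3K27ac. Both annotated ends of each gene were given a window reaching 1 kb to either side, together called its ends, and a region counted when it touched a window by 1 bp or more. An H3K27ac region lay at an end of 28 of the 31 genes (90.3%, exact 95% interval 74.2 to 98%, counting over genes only), against 40.6% of all autosomal protein-coding genes. By family these were 9 of 11 SR genes and 19 of 20 hnRNP genes. The 3 genes without it were Srsf12, Srsf2 and Hnrnpa1l2-ps2, and these also had no H3.3 region at an end, against 53.9% of all genes with neither set.

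H3.3 separated the members more than H3K27ac did. An H3.3 region lay at an end of 16 of the 31 genes (51.6%, exact interval 33.1 to 69.8%), against 16.8% of all genes. It was present at 13 of 20 hnRNP genes (65%, 40.8 to 84.6%) and at 3 of 11 SR genes (27.3%, 6.02 to 61.0%). These intervals overlap, and the difference between the families was not tested. All 16 genes also had H3K27ac at an end, so both sets were present at 51.6% of members against 11.2% of all genes. H3.3 alone was at 0 of 31, against 5.55%, and H3K27ac alone at 12 (38.7%), against 29.3%. The 0 rests on Hnrnpd, whose H3K27ac at an end lay at the 3′ end, away from its H3.3. A 500 bp window, or a required overlap of at least 100 bp, did not count that H3K27ac region. H3.3 was then at 12 and 16 members, and both sets at 11 and 15. The H3.3 region touched an H3K27ac region at 14 of 31 genes (45.2%), against 9.09%, the other 2 being Srsf1 and Hnrnpd. Among genes with H3K27ac at an end, H3.3 was present at 16 of 28 members (57.1%, 37.2 to 75.5%) and at 27.7% of all genes. With only the wider 50% of each set the H3.3 count fell to 9 of 31, against 8.9% of all genes, and with genes that have another protein-coding gene within 2 kb left out it was 6 of 11, against 12.5%.

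At gene ends, the H3K27ac regions of the members had a wider median than those of all genes, and the H3.3 medians lay closer together. The widest H3K27ac region at an end had a median width of 2554.5 bp over the 28 genes, with an interquartile range of 1139.25 to 3528 bp, against 1400 bp over the 8381 genes with such a region. The median was 1754 bp for the SR genes and 2576 bp for the hnRNP genes. For H3.3 the corresponding median width was 553.5 bp over 16 genes, against 487 bp over 3470 genes.

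**Figure D1:**
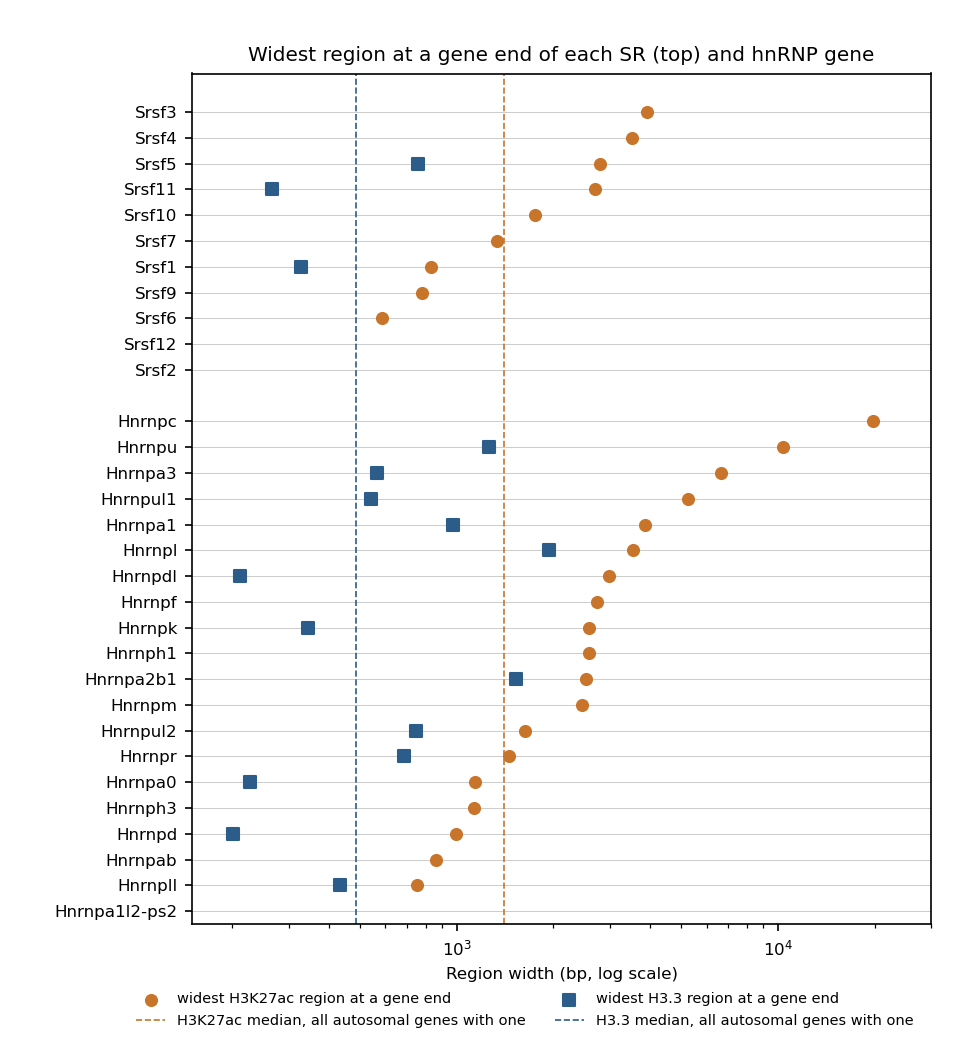
Width in bp (log axis) of the widest H3K27ac region (circles) and the widest H3.3 region (squares) at an end of each SR gene (upper block) and hnRNP gene (lower block), with no symbol where there was none. Dashed lines are the medians over all autosomal protein-coding genes with a region, 1400 bp for H3K27ac and 487 bp for H3.3, and 16 of the 31 genes have both symbols.

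Among H3K27ac regions at gene ends, the widest of the SR genes lay across the start. Srsf3, whose product couples splicing to mRNA export, had the widest at an end, 3916 bp at chr17:29030573-29034488 (mm10), which ran from -2087 to 1828 bp around the listed start. At Srsf4 the region measured 3524 bp (chr4:131871919-131875442). Neither gene had an H3.3 region. At Srsf5 the H3K27ac region of 2794 bp (chr12:80943968-80946761) enclosed an H3.3 region of 758 bp (chr12:80945375-80946132), the widest H3.3 region of the SR genes. Srsf11, which encodes an atypical SR protein, had an H3.3 region of 266 bp (chr3:158036679-158036944) within an H3K27ac region of 2692 bp that is also within 1 kb of an end of the neighbouring gene Lrrc40.

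Srsf1, the gene of the prototype SR protein SF2/ASF, had the marks side by side and not overlapping. Its H3.3 region of 327 bp (chr11:88047260-88047586) covered the listed start. The nearest H3K27ac regions were 831 bp wide ending 481 bp before that start (chr11:88046062-88046892) and 1555 bp wide in the gene. The first covered the annotated 5′ end of Srsf1, which lies before the listed start. At Srsf6 (584 bp, chr2:162930537-162931120) and Srsf9 (779 bp, chr5:115325769-115326547), both activators of exon inclusion, the H3K27ac region at an end was narrow and lay upstream, ending 388 bp and 630 bp before the start. Srsf9 also had a region of 237 bp in its body. At Srsf7 a region of 783 bp ended 2 bp before the listed start and covered the annotated 5′ end of the gene. That region also lies within 1 kb of an end of Gemin6, and Srsf7 had a wider region of 1332 bp at its 3′ end. Srsf10, which encodes a splicing repressor when dephosphorylated, had regions of 1567 bp and 857 bp on either side of a start that neither covered, and at its 3′ end a region of 1754 bp that also lies within 1 kb of an end of Pnrc2.

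The 3 genes without H3K27ac at an annotated end were not alike. Srsf2, the gene of the nuclear speckle protein SC35, lies at chr11:116849897-116853675 on the minus strand and overlaps Mfsd11. It had 1 H3K27ac region of 302 bp inside the gene, which was within 1 kb of the listed start but not of the annotated end, and a window of 2.5 kb counted it. Srsf12 (chr4:33208991-33233343) had no region of either set within the gene or 1 kb of it. Hnrnpa1l2-ps2 (chr15:22713820-22714984), which overlaps Cdh18, had none either.

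The hnRNP genes held the widest H3K27ac regions at gene ends of the members. Hnrnpc, whose product binds uridine tracts and packages nascent RNA, had a region of 19792 bp across its 3′ end (chr14:52063250-52083041), at percentile 99.6 of the widest end regions of all genes with one. At its start it had 4604 bp downstream and 251 bp upstream, and no H3.3 region. Hnrnpu, the gene of the scaffold attachment factor SAF-A, had 10334 bp across its 3′ end (chr1:178316343-178326676), in a region that also lies within 1 kb of an end of the overlapping gene Cox20 and shares 735 bp with an H3.3 region outside the Hnrnpu window, and 4072 bp across its start. Hnrnpa3 had 6643 bp across its start (chr2:75655619-75662261). Taking the widest region at an end of each gene, the narrowest were at Hnrnpll, whose product directs the splicing of the lymphocyte gene Ptprc (750 bp, chr17:80062278-80063027), Hnrnpab (862 bp, chr11:51599522-51600383) and Hnrnpd (995 bp, chr5:99956859-99957853). For Hnrnpab and Hnrnpd these lay at the 3′ end, and both had wider regions in the body, of up to 2756 bp and 4681 bp.

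All 13 hnRNP genes with H3.3 at an end also carried H3K27ac there or at the other end, and the width of the H3.3 region varied among them. Hnrnpl, whose product binds CA repeats, had 1941 bp (chr7:28808876-28810816), of which 1786 bp lay in an H3K27ac region of 3540 bp. At Hnrnpa2b1, which lies 106 bp from the gene Cbx3, it measured 1527 bp (chr6:51469381-51470907), with 1003 bp shared with H3K27ac. Hnrnpu had H3.3 regions of 1259 bp (chr1:178336951-178338209) and 236 bp. Hnrnpa1, the gene of a well known splicing repressor, had 976 bp (chr15:103239345-103240320), all inside an H3K27ac region of 3853 bp that also touches an end window of Cbx5.

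The other hnRNP genes with H3.3 at an end had shorter regions. They measured 746 bp at Hnrnpul2 (chr19:8819080-8819825), 687 bp at Hnrnpr (chr4:136310181-136310867), 564 bp at Hnrnpa3 (chr2:75657998-75658561) and 543 bp at Hnrnpul1 (chr7:25754919-25755461). At Hnrnpll the H3.3 region of 432 bp (chr17:80061867-80062298) shared only 21 bp with H3K27ac. At Hnrnpk, the gene of a poly(C)-binding KH-domain protein, it measured 344 bp (chr13:58402169-58402512). The shortest were 228 bp at Hnrnpa0 (chr13:58128966-58129193), 211 bp at Hnrnpdl (chr5:100039689-100039899) and 201 bp at Hnrnpd (chr5:99979187-99979387). Hnrnpd encodes AUF1, a factor of AU-rich element mRNA decay, and its H3.3 region was upstream of the start while no H3K27ac region lay within 1 kb of that start. It and Srsf1 held the 2 H3.3 regions that touched no H3K27ac, out of 19 within the members or 1 kb of them.

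H3.3 at these genes was a mark of the start. The table of promoter sequences gives a start and strand for 29 of the 31 members (not for Hnrnpll and Hnrnpul2) and for 16456 of all genes. All 17 H3.3 regions of these 29 genes lay within 1 kb of a listed start, and 15 genes had at least 1 there (51.7%, against 17.3% of all genes). None of the 29 had H3.3 within 1 kb of the 3′ end, against 2.18% of all genes. Hnrnph1, whose product binds G runs, had 2 H3.3 regions, of 739 bp and 224 bp, each covering a listed start more than 1 kb inside the annotated gene, and so enters this count but not that of gene ends.

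Relative to the listed start, H3.3 lay mostly on the upstream side. At 10 of the 15 genes every H3.3 region ended before the first listed start, against 25.6% of the 2845 genes with H3.3 near a start. These were Hnrnpa0, Hnrnpa1, Hnrnpa3, Hnrnpd, Hnrnpdl, Hnrnpk, Hnrnpl, Hnrnpr, Hnrnpul1 and Srsf11. By the annotated span, however, the H3.3 region lay inside the gene at Hnrnpdl, Hnrnpk, Hnrnpl and Hnrnpul1, and across its 5′ end at Hnrnpa1. In these genes the listed start lies inside the annotated span. At Hnrnpa2b1, Hnrnph1, Hnrnpu, Srsf1 and Srsf5 a region covered a listed start (33.3%, against 47.7%). At Hnrnph1 the covered starts were inner ones, and its regions lay 236 to 974 bp and 1177 to 1400 bp after the outermost listed start. At 0 of the 15 was H3.3 only downstream of every listed start, against 20.2%, or in another arrangement, against 6.4%. Over all 29 genes, H3.3 covered a listed start at these 5 (17.2%), against 8.25%. For 5 of the 10 genes with upstream H3.3 the region also lay within 1 kb of an end of another protein-coding gene, and the part of that neighbour in the position was not tested. Over all members, 8 of 16 genes shared an H3.3 end region with a neighbour in this way, against 34.8% of all genes with one, and 14 of 28 shared an H3K27ac end region, against 42.0%.

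**Figure D2:**
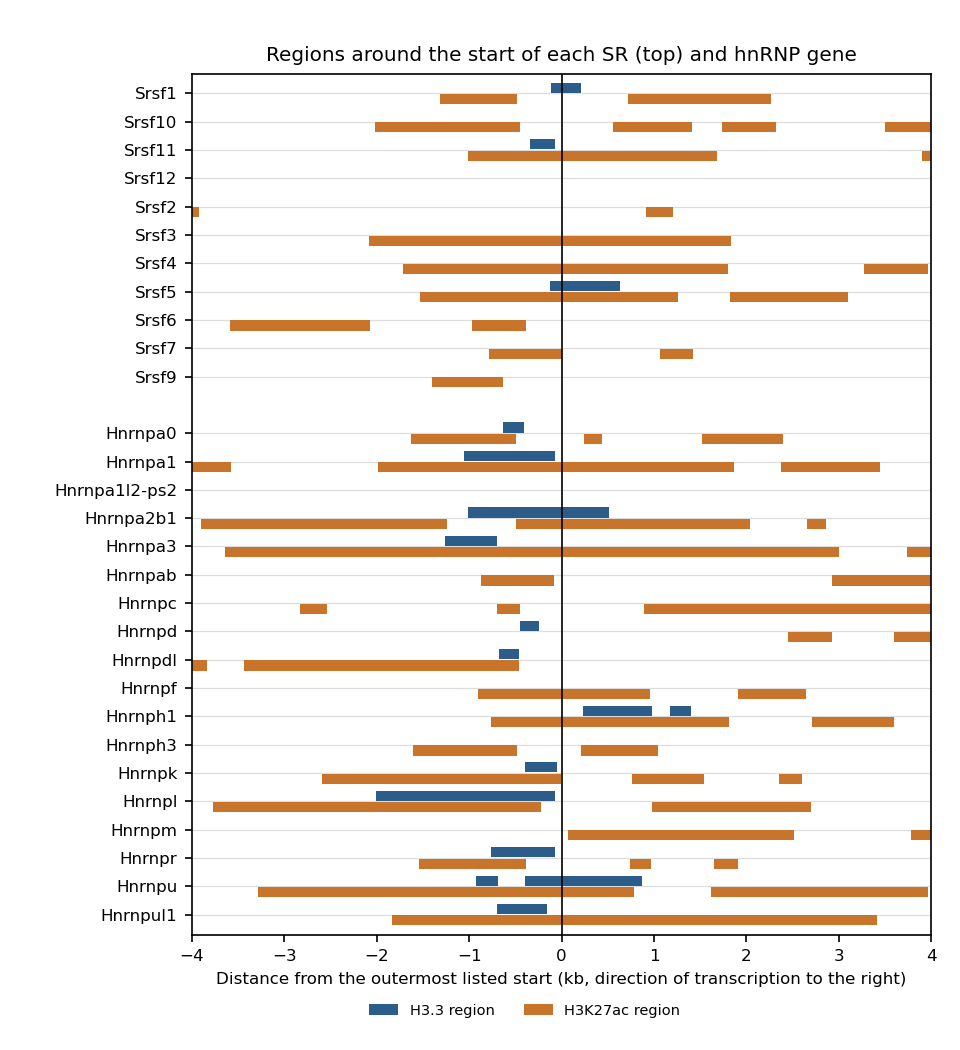
Positions of H3.3 regions (upper bar of each row) and H3K27ac regions (lower bar) within 4 kb of the outermost listed start of the 29 SR and hnRNP genes with one, in kb with transcription to the right. H3.3 bars end before the start at 10 genes and cover a listed start at 5, at Hnrnph1 only inner starts that are not drawn. H3K27ac bars leave the start uncovered with a bar within 1 kb on either side at 8 genes.

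H3K27ac was near the listed start of most members, yet often stopped short of it. A region lay within 1 kb of a listed start at 26 of 29 genes (89.7%, against 37.8% of all genes) and covered one at 11 (37.9%, against 20.0%). At the outermost listed start, 8 genes had regions within 1 kb on both sides and none across it (27.6%, against 3.83% of all genes). They were Hnrnpa0, Hnrnpc, Hnrnph3, Hnrnpk, Hnrnpl, Hnrnpr, Srsf1 and Srsf10. A further 5 had H3K27ac only upstream (17.2%, against 4.99%) and 2 only downstream (6.9%, against 9.14%), and 3 had none within 1 kb (10.3%, against 63.4%). The start itself was covered at 11 (37.9%, against 18.6%). The shares of all genes count the 63.4% with none within 1 kb, and class shares among genes with H3K27ac there were not computed. These classes depend on the listed start. At Hnrnpdl, Hnrnpk, Hnrnpl, Srsf1 and Srsf7, classed as flanked or upstream only, an H3K27ac region covered the annotated 5′ end of the gene. The share of members with H3K27ac was 75.9% at 500 bp before the start, 37.9% at the start and 58.6% at 1000 bp after it. Over the 6218 genes with H3K27ac near a start the same shares were 47.8%, 49.3% and 45.7%, and over the 26 members with H3K27ac near a start they were 84.6%, 42.3% and 65.4%. These positions were chosen after the profile was seen.

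**Figure D3:**
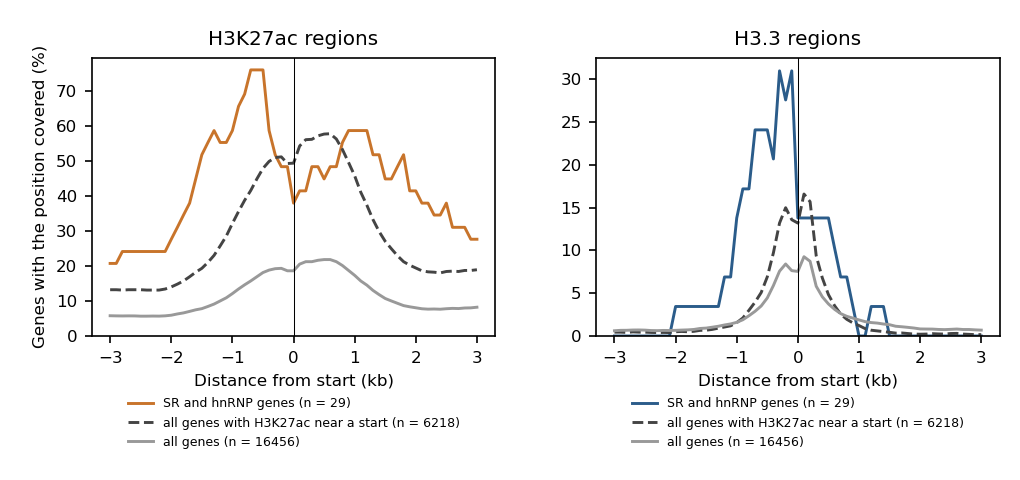
Percent of genes whose position is inside an H3K27ac region (left) or an H3.3 region (right), in steps of 100 bp from 3 kb before to 3 kb after the outermost listed start. Lines are the 29 SR and hnRNP genes, all 16456 autosomal genes with a listed start and the 6218 of these with H3K27ac near a start. H3K27ac of the SR and hnRNP genes falls from 75.9% at 500 bp upstream to 37.9% at the start, and their H3.3 reaches 31.0% at 300 bp upstream.

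The promoters of 8 members are printed to show the sequence that these patterns flank. Each is the 250 bases before the outermost listed start, from RefSeq (GRCm38.p6), 5′ to 3′ on the strand of the gene. Capitals mark matches on either strand to short motifs of promoter-binding factors, and neighbouring matches can overlap. The TATA box was searched as TATAAA, the CCAAT box by the letters of its name, and the GC box as GGGCGG. For ETS factors the letters were CCGGAAG, for the CRE core they were TGACGT, and the E box was read as CACGTG. The NRF1 core was searched as GCATGCGC, and the ZBTB33 element is given by name. Hnrnpa3 and Hnrnpul1 had the widest H3K27ac near a start with H3.3 there, Hnrnpf and Hnrnpc the widest without H3.3, and Hnrnpa1l2-ps2 and Srsf12 had no H3K27ac at an end. Srsf1 and Srsf2 were added after their values were seen.
Hnrnpa3, chr2:75659009-75659258, plus strand: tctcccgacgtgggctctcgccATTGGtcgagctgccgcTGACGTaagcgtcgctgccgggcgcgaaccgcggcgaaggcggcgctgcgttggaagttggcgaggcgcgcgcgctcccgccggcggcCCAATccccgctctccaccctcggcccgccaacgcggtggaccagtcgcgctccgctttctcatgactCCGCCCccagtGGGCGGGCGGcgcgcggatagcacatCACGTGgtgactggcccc
Hnrnpul1, chr7:25754760-25755009, minus strand: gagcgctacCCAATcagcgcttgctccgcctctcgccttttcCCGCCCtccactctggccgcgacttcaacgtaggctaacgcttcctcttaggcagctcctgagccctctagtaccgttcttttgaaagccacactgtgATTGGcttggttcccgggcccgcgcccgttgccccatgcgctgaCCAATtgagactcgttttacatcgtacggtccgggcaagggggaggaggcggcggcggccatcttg
Hnrnpf, chr6:117900090-117900339, plus strand: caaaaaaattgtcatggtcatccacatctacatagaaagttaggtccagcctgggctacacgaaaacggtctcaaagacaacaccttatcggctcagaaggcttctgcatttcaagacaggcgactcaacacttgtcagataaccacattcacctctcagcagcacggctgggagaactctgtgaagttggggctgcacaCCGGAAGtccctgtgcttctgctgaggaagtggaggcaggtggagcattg
Hnrnpc, chr14:52104022-52104271, minus strand: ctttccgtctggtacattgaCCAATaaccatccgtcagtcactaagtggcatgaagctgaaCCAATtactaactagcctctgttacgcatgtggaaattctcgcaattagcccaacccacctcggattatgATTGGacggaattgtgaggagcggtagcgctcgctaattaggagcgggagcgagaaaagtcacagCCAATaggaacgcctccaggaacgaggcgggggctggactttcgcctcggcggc
Hnrnpa1l2-ps2, chr15:22714985-22715234, minus strand: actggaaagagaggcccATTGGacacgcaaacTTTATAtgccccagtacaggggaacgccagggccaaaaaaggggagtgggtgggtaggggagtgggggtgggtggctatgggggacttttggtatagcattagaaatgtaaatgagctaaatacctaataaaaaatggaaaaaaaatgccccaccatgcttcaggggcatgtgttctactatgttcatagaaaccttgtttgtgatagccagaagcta
Srsf12, chr4:33209022-33209271, plus strand: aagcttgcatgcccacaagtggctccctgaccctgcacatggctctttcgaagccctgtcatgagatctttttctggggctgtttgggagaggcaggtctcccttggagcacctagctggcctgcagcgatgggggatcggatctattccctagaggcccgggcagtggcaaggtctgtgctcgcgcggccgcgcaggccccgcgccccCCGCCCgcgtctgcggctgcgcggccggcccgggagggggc
Srsf1, chr11:88047123-88047372, plus strand: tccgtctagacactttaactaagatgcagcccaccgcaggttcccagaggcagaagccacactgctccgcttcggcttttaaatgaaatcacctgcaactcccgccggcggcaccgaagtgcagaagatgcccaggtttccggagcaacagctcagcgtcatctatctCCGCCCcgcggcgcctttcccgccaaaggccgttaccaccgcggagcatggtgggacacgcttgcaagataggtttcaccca
Srsf2, chr11:116853095-116853344, minus strand: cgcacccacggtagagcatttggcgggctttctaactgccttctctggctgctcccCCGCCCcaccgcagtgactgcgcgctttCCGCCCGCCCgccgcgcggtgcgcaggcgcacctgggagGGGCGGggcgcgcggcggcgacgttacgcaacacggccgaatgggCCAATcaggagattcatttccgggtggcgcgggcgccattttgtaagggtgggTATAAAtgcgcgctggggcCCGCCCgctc

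H3K27ac covered all 250 printed bases at Hnrnpa3, Hnrnpul1 and Hnrnpf, and none at Hnrnpc, Srsf12, Srsf1, Srsf2 and Hnrnpa1l2-ps2. H3.3 covered 91 of the 250 bases at Hnrnpul1 and 113 at Srsf1, and none at the other 6. The widest region counted for Hnrnpf, 13848 bp, lies at starts inside the gene, while the printed start is in a separate region of 1865 bp. Over the 29 members, H3K27ac covered the whole stretch at 11, part of it at 4 and none of it at 14, and H3.3 touched it at 11. These counts were not made over all genes. At the position 200 bp before the start, H3K27ac covered 48.3% of members against 19.3% of all genes, and H3.3 27.6% against 8.42%.

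Most of these promoters were rich in CpG. The 250 bases held a median of 23 CpG over the 29 members against 10 over all 16456 genes, with a GC content of 65.2% against 55.6%. CpG counts ran from 2 at Hnrnpa1l2-ps2 to 46 at Hnrnpa0. Members with H3.3 near a start (n = 15) had a median of 23 CpG and those without (n = 14) had 24, and the ranges overlapped. The 250 bases held 19 CpG at Srsf12 and 33 at Srsf2. Both stretches were free of both sets, as were those of 11 of the 29 members, these included.

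Counts of short motifs in the same 250 bases are descriptions of letters, not of bound sites. The GC box was present at 22 of 29 members (75.9%, against 43.6% of all genes) and the CCAAT box at 15 (51.7%, against 36.3%). The CRE core was present at 7 (24.1%, against 7.63%), and the ETS site at 6 (20.7%, against 9.39%). TATAAA was present at 4 (13.8%, against 12.5%), namely Hnrnpa1l2-ps2, Hnrnpm, Srsf2 and Srsf3. The E box was present at 2, Hnrnpa3 and Hnrnpd (6.9%, against 6.73%). The NRF1 core was found at Srsf7 alone (3.45%, against 3.01%), and the ZBTB33 element at 0 of 29 (against 0.589%). GC content also differed, as given above, and its part in these shares was not tested.

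Acetylation of the members was not limited to their starts. H3K27ac lay within 1 kb of the 3′ end at 20 of 29 genes (69.0%, exact interval 49.2 to 84.7%, against 19.9% of all genes). At 16 of the 29 the region there touched no end window of another protein-coding gene (55.2%, against 12.2%). In the gene body, the part more than 1 kb from either end, H3K27ac was present at 27 of 31 members (87.1%, against 43.9%). The exceptions were Srsf6, Srsf12, Hnrnpdl and Hnrnpa1l2-ps2.

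H3K27ac was also compared as a covered share of the whole gene, ends included. The members are shorter than other genes, with a median span of 11272 bp against 17491 bp. Among genes with H3K27ac at an end the medians were 11742 bp for members and 20289 bp for all genes. The covered share is not corrected for length, and the part of length in it was not tested. H3K27ac covered a median of 34.7% of the span with 1 kb added at each side, against 0.554% over all genes and 15.8% over the 8381 genes with H3K27ac at an end. The share was highest at Hnrnpu (83.0%), Hnrnpc (76.3%) and Hnrnpf (69.4%), the last a gene of the G-run binding class, and was 65.5% at Hnrnpl and 61.8% at Hnrnpa1. Among SR genes it was highest at Srsf4 (54.6%), Srsf5 (54.0%) and Srsf11 (53.1%). It was lowest, among members with H3K27ac at an end, at Hnrnpll (4.43%), Srsf9 (7.17%) and Srsf6 (7.67%).

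Several of the longer members held their body acetylation in many separate regions, but this did not set the members apart. Among genes with H3K27ac at an end, the median number touching the body was 3 for members and 2 for all genes. The highest numbers were 13 and 72. Hnrnpul1 had 13 H3K27ac regions touching its body, Hnrnpm, whose product binds GU-rich sequence, had 11, Srsf11 had 10 and Srsf4 had 9, the widest of these at Srsf4 being 8505 bp. Hnrnpll, with a span of 32782 bp, had 1. Of the 139 H3K27ac regions within the members or 1 kb of them, 84 touched no end window of the member. An H3.3 region touched 0 of these 84, but the same share over all genes was not computed. That 0 therefore does not set the members apart. H3.3 reached into the body at 6 of 31 genes (19.4%, against 7.5%), which were Hnrnph1, Hnrnpk, Hnrnpl, Hnrnpu, Hnrnpul1 and Srsf1, each with its region within 1 kb of a listed start. With a window of 2.5 kb this count was 1.

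Some members lie near each other on a chromosome. Hnrnpd and Hnrnpdl are 54.4 kb apart on chromosome 5, Hnrnpll and Srsf7 138 kb apart on chromosome 17, Hnrnpa0 and Hnrnpk 263 kb apart on chromosome 13, and Srsf10 and Hnrnpr 441 kb apart on chromosome 4. Of these genes, Hnrnpd, Hnrnpdl, Hnrnpll, Hnrnpa0, Hnrnpk and Hnrnpr had H3.3 at an end, and Srsf7 and Srsf10 did not. Over all members the share with it was 51.6%. Hnrnpd and Hnrnpdl both had a short H3.3 region upstream of the listed start, of 201 and 211 bp. However, Hnrnpdl had 2975 bp of H3K27ac upstream of its listed start, and Hnrnpd had none within 1 kb of its own.

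Other genes of the splicing machinery were set beside the members by the same count at gene ends. H3K27ac was present at 18 of 19 SR-like and SR-related regulators, 8 of 9 SR protein kinases and transport factors and 17 of 18 U1, U2 and U2AF proteins. It was also present at 7 of 7 Sm core proteins, 22 of 23 tri-snRNP and catalytic core proteins and 22 of 25 other broadly expressed RNA-binding regulators. These shares, from 88% to 100.0%, lay around the 90.3% of the members. Median widths were between 1854 bp and 2622.5 bp.

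H3.3 varied more between these lists. It was present at 8 of 18 U1, U2 and U2AF proteins (44.4%), 3 of 7 Sm core proteins (42.9%), 3 of 9 kinases and transport factors (33.3%), 8 of 25 other regulators (32.0%), 5 of 19 SR-like regulators (26.3%) and 3 of 23 tri-snRNP and catalytic core proteins (13.0%), against 16.8% of all genes. The hnRNP genes had the highest share of the lists compared, 65%, and the SR genes, at 27.3%, were close to the SR-like regulators. No difference between lists was tested.

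Named examples follow the width of the region at a gene end. Among SR-like regulators H3K27ac was widest at Luc7l3 (12793 bp), Srrm1 (11036 bp), Tra2a (10065 bp), which encodes an SR-like splicing activator, and Srrm2 (6163 bp). At its ends Rsrc1 had H3.3 alone (881 bp). Among the kinases, Clk1 (9251 bp) and Srpk1 (4643 bp), which phosphorylate SR proteins, were widest, followed by Clk2 (2551 bp) and Clk3 (2024 bp), and Srpk2 had neither set at an end. Among other regulators Matr3 (13792 bp), Raly (12992 bp), Rbfox2 (7989 bp) and Ewsr1 (7287 bp) were widest, and Mbnl1, Ptbp3 and Qk had no H3K27ac at an end.

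In the core machinery H3K27ac at an end was widest at Sf3b3 (6434 bp), Snrpa (5051 bp), Sf3a1 (3976 bp) and Sf1 (3089 bp), the last the gene of the branch point binding protein, among U1, U2 and U2AF proteins, and absent at Snrpc. Snrpd1 (3579 bp), Snrpb (3008 bp), Snrpg (2477 bp) and Snrpe (2293 bp) led the Sm proteins. Dhx8 (6260 bp), Xab2 (4610 bp), Cdc5l (4445 bp) and Txnl4a (3534 bp) led the tri-snRNP and catalytic core, where Plrg1 had neither set at an end. At gene ends, H3.3 was widest in these lists at U2af2 (2273 bp), the gene of the large subunit that binds the polypyrimidine tract.

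Splicing regulators of particular tissues differed from the members. Of 24 listed, many of them neuronal or muscle genes, 7 had H3K27ac at an end (29.2%, against 40.6% of all genes). The median width was 575 bp, against 1400 bp. H3.3 was present at 3 (12.5%), near the 16.8% of all genes. Neither set was present at 17 of the 24, against 53.9% of all genes. The 4 widest H3K27ac regions at an end were at Esrp2 (1370 bp), Srrm4 (1218 bp), Esrp1 (581 bp) and Rbm38 (575 bp). Esrp1 and Esrp2, epithelial splicing regulators, and Srrm4, the neuronal microexon regulator, were also the 3 genes with H3.3, of 1797, 447 and 1131 bp. Celf2, Celf3, Celf4 and Celf5 had neither set at an end.

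**Figure D4:**
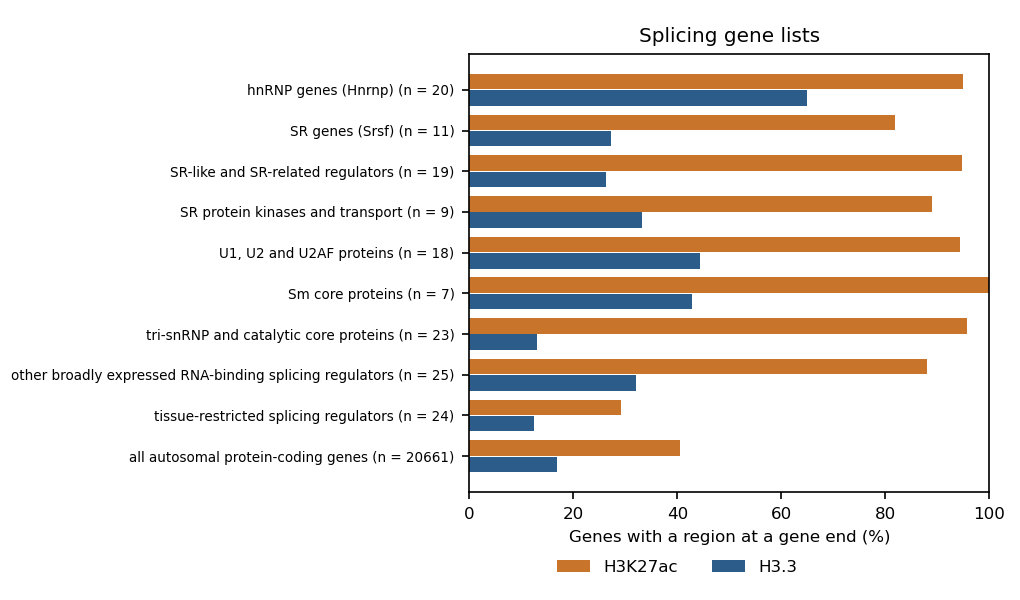
Percent of genes with H3K27ac or H3.3 at an end in the hnRNP and SR genes, in 7 other lists of splicing genes and in all autosomal protein-coding genes, with the number of genes found in each. H3K27ac is between 81.8% and 100.0% in every list except the tissue-restricted regulators (29.2%), and H3.3 is highest at the hnRNP genes (65%).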

How the data were processed

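Regions came from CUT&RUN of E14 cell nuclei. Per the submitters' processing notes, Bowtie2, SAMtools, deepTools, MACS2 and build mm10 were used, without versions or roles. How the authors combined libraries into a consensus, and any threshold, is not given in the sources used here. What was deposited is region starts and ends, with no score or height. Per the labels' protocols, H3.3 used a protein A/G fusion nuclease and a low-salt stop, and H3K27ac a protein A fusion and more salt, so the sizes of the sets do not compare amounts. Columns of other samples numbered 0. Libraries for H3K122ac and the controls were not used here.

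Starts were raised by 1 bp to give 1-based positions. Gene spans came from the RefSeq table of GRCm38.p6, starts and strand from its promoter table. Presence, width and cover were computed with Python 3.11.15, numpy 2.4.6 and pandas 2.3.3, and exact (Clopper-Pearson) intervals with scipy 1.17.1. The counting was checked on planted regions of known position. The members and lists were chosen with earlier results of these data known. Values were given in full for members with H3.3, members without H3K27ac and the 3 widest and 3 narrowest H3K27ac regions of each family, and in other lists for up to 4 genes with and 4 without a region. Of 127 listed names, 2 (Nono and Rbm10) are not autosomal. Alternatives covered the window, overlap, width, neighbours and joining of regions.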

Additional observations from a re-analysis of the deposited data

How the results depend on the processing

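The 10 counts and medians on the members were recomputed under 7 alternatives, giving 66 values. Of these, 55 stayed within 1.5 times the count, or within the binomial interval of the median, and 11 did not. With only the wider 50% of each set, H3.3 at an end, both sets at an end and H3.3 near a start were each found at 9 members. With a window of 2.5 kb, H3.3 in the body was found at 1. Leaving out the 20 members with another protein-coding gene within 2 kb left 11, and the counts fell because fewer genes were counted: H3K27ac at an end and near a start 10 each, in the body 9, H3.3 at an end 6, both sets 6, H3.3 near a start 7 and in the body 3. The start and body counts were not recomputed with regions anywhere in the gene, which does not apply to them. No paired analysis was possible because the region lists carry no value per library. Depth is unknown, so an absent region says only that none was called.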
